A study of Mus musculus with 2 samples.

Results

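A set of 10 genes of distal salt transport were followed cell by cell in the newborn mouse kidney. They were taken by name, by a rule that uses no measured value though earlier results of these data were known, and all 10 are among the 8930 genes given for both libraries, where they are listed in lower case as slc12a1, slc12a2, slc12a3, umod, kcnj1, scnn1a, scnn1b, scnn1g, wnk1 and fxyd2. Whole kidneys of male C57BL/6J mice, taken at postnatal day 2, gave 1 single-cell library from a control and 1 from a mouse exposed to maternal diabetes. The labels speak both of 1 kidney and of pooled cells, which leaves the number of animals per library unclear. Trypsin was used to free the cells, which were filtered and frozen before library preparation. With 1 library per group there is no replicate, so no test was made, and every interval below covers counting error only, at the 95% level.

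The kidney reclaims salt along the distal nephron in successive segments, each with its own entry step in the apical membrane. The thick ascending limb of the loop of Henle takes up sodium, potassium and chloride together through NKCC2 (Slc12a1) and returns potassium to the lumen through ROMK (Kcnj1); the distal convoluted tubule uses the thiazide-sensitive cotransporter NCC (Slc12a3), which is switched on by WNK kinases; and the connecting tubule and collecting duct use the epithelial sodium channel ENaC, built from an alpha, a beta and a gamma subunit (Scnn1a, Scnn1b, Scnn1g). The sodium pump on the blood side drives all of these steps, and in mice nephrons are still forming for some days after birth, so mature and immature segments lie side by side at this age.

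The control library held 9071 cells with a median of 3434 unique molecular identifiers (UMIs, 1 per captured transcript) over the shared genes, and the exposed library 5494 cells with a median of 4230. Mitochondrially encoded genes took 16.25% of the UMIs in control and 11.69% in exposed cells, and 1540 and 690 cells were above 25% in the authors' table. The libraries shared 14 cell barcodes. Levels are given in CPM, the UMIs of a gene per 1000000 UMIs of a group of cells. The kit counts 1 transcript end and not its length, so levels of different genes are not ranked against each other.

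The authors' 10 clusters per library were deposited as numbers and were named here from marker lists that hold none of the 10 genes, so each name reads as "like". Cluster 5 of each library took the loop of Henle name, but it was a mixed distal cluster: in the control library it detected 13 loop, 9 distal convoluted and connecting tubule, 4 collecting duct and 8 intercalated cell markers, and its leading genes were Atp6v1g3, S100g, Defb1 and Kng2. Cluster 10 of the control and cluster 8 of the exposed library were distal convoluted and connecting tubule-like, and their UMIs were 67.87% and 61.37% mitochondrial. In these clusters 9 of the 10 genes had their highest level in a distal nephron-like cluster of both libraries. Slc12a2 was the exception and was highest in the differentiating nephron-like cluster 2. Whether these genes took part in the authors' clustering was not given in the sources used here, so this count is a description.

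**Figure D1:**
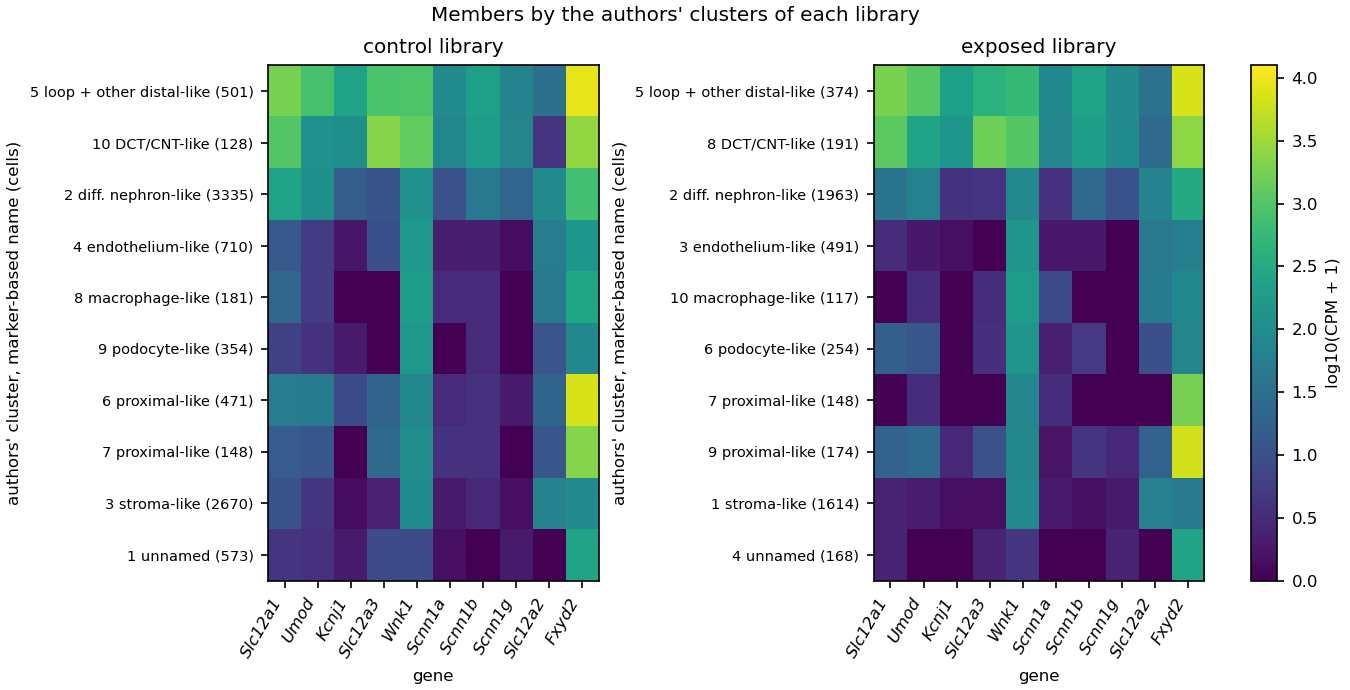
Level of the 10 genes in each of the authors' clusters, as log10(CPM + 1) by colour, control library on the left and exposed library on the right; rows carry the cluster number, its marker-based name and its number of cells. Slc12a1, Umod, Kcnj1, Slc12a3 and the Scnn1 genes are bright in the top 2 rows of both libraries, Fxyd2 also in proximal-like clusters, and Wnk1 is visible in every named row.

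By the authors' clusters, Slc12a1 reached 1798 CPM (1750 to 1848) in cluster 5 of the control library and 1854 CPM (1807 to 1903) in that of the exposed library. Umod reached 799.9 and 1108 CPM in these clusters, and Kcnj1 226.9 and 208.2 CPM. Slc12a3 was highest in the distal convoluted and connecting tubule-like clusters, at 2242 CPM (2078 to 2415) in control and 1549 CPM (1442 to 1662) in exposed cells. The same clusters had the highest Wnk1, at 1299 and 1055 CPM, and the highest Scnn1g, at 71.28 and 93.23 CPM. The authors' partition did not place these cells alike in the libraries: the differentiating nephron-like cluster 2 held 43.09% of all Slc12a1 UMIs of the control library and 6.696% of those of the exposed library. For Umod the shares in cluster 2 were 43.92% and 17.75%.

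To read both libraries in 1 frame, the cells of both were therefore also clustered together without the 10 genes and without mitochondrially encoded genes, and 36 of the resulting 42 clusters had at least 20 cells in each library. The number of clusters was chosen after the data were seen. Of the 271 control cells of joint cluster 11, the loop-like cluster led by Kng2, Cldn10, Ppp1r1a and Pappa2, 102 (37.64%) lay in the authors' cluster 2, against 3 of 169 (1.775%) in the exposed library. Of the cells of joint cluster 26, the collecting duct principal-like cluster led by Aqp2 and Fxyd4, all 159 of the control library lay in the authors' cluster 2, and in the exposed library 59 of 89 did and 29 lay in cluster 5. The joint clusters give the segments below, and none of the 10 genes helped to define them.

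**Figure D2:**
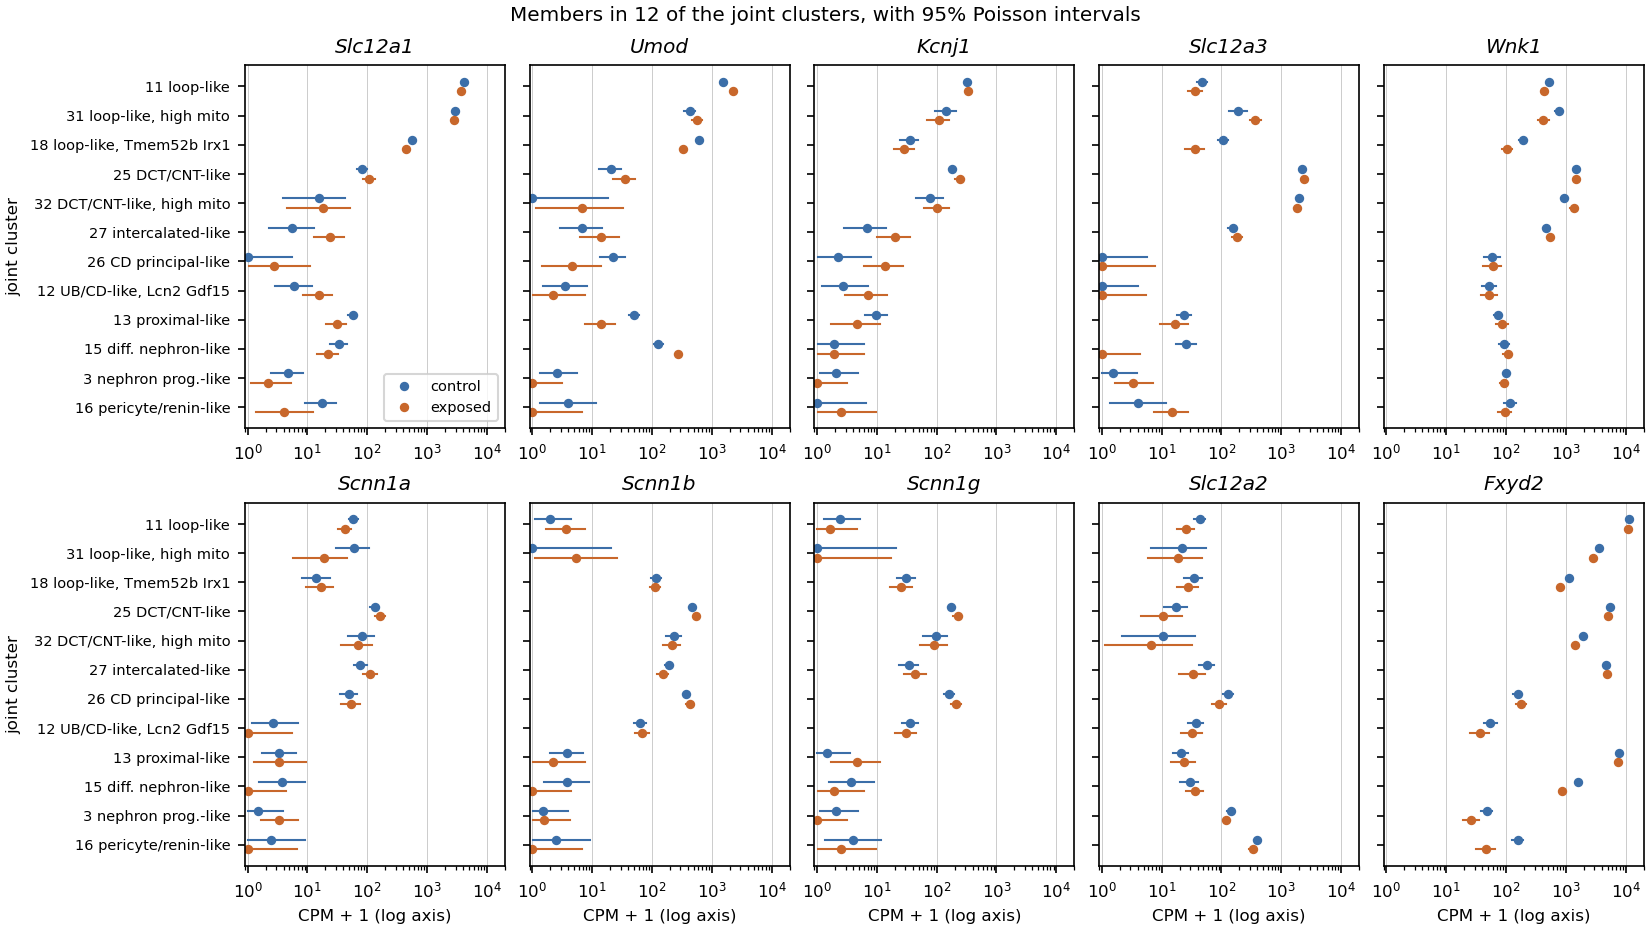
Level of each gene, as CPM + 1 on a log axis, in 12 of the joint clusters with exact 95% Poisson intervals; control cells are blue and exposed cells orange, and cluster names come from markers that exclude these genes. The loop-like cluster 11 has the highest Slc12a1 (4127 and 3708 CPM), cluster 25 the highest Slc12a3 (2269 and 2415 CPM), and cluster 16 the highest Slc12a2 (394.8 and 337.2 CPM).

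Slc12a1, which encodes the furosemide-sensitive cotransporter NKCC2, marked the loop-like cells. Its level in cluster 11 was 4127 CPM (4040 to 4216) in control and 3708 CPM (3611 to 3806) in exposed cells. It was 2991 and 2797 CPM in cluster 31, a loop-like cluster with 54.99% and 59.48% mitochondrial UMIs, and 570.2 and 451.5 CPM in cluster 18, a loop-like cluster led by Tmem52b, Sostdc1 and Irx1. The intervals of these 3 ranks did not overlap in either library. Cluster 18 was mixed, with 6 loop, 3 distal convoluted and connecting tubule and 4 collecting duct markers detected. S100g, a distal tubule marker, was 6089 and 3414 CPM in it, against 501.9 and 320.9 CPM in cluster 11. Of the Slc12a1 UMIs, 94.52% in control and 96.75% in exposed cells lay in loop-like clusters, cluster 18 among them. Per cell of cluster 11 the median was 21 UMIs in control and 25 in exposed cells, the maximum 258 and 225, and 6 and 10 cells had none. The distal convoluted and connecting tubule-like cluster 25 followed with 81.81 and 107.1 CPM, but few cells carried it: 10 control cells held 93 UMIs and 2 exposed cells held 66. The principal-like cluster 26 had 0 UMIs in control and 1 in exposed cells.

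Umod encodes uromodulin, the protein that thick ascending limb cells release into the urine. Its level in cluster 11 was 1556 CPM (1502 to 1610) in control and 2253 CPM (2178 to 2330) in exposed cells. Umod was also less evenly spread over cells than Slc12a1: the median in cluster 11 was 3 UMIs in control and 8 in exposed cells, the maximum 116 and 183, and 89 control cells (32.8%) and 50 exposed cells (29.6%) had none. Loop-like clusters held 85.54% and 87.21% of the Umod UMIs. A further 7.505% and 10.32% lay in differentiating nephron-like clusters, where single cells weighed heavily: in the exposed cluster 15, 5 cells held 86.85% of the Umod UMIs and 1 cell alone 157. The order of clusters below cluster 11 differed between the libraries, with cluster 18 next in the control (612.7 CPM, against 429.6 CPM in cluster 31) and cluster 31 next in the exposed library (566.6 CPM, against 329.4 CPM in cluster 18). In cluster 18 the 5 cells with most Umod held 63.70% of it in control and 45.24% in exposed cells.

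The proportion of Umod to Slc12a1 differed between the loop-like clusters. Umod made up 27.4% (26.6 to 28.2) of the UMIs of the pair in cluster 11 of the control and 37.8% (36.8 to 38.8) in the exposed library. It made up 12.6% and 16.8% in cluster 31. Without the 5 cells richest in Umod the share in cluster 11 was 25% and 34.2%, so the higher share of the exposed library did not rest on those cells. In cluster 18 it was 51.8% and 42.2% with all cells, and 30.7% and 31% without them. Outside the loop, the differentiating nephron-like cluster 15 had a Umod share of 79.3% in control and 92.6% in exposed cells.

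Kcnj1 (mm10, chr9:32372493-32399197) encodes ROMK, the potassium channel of the apical membrane. Its level in cluster 11 was 319.5 CPM (295.6 to 344.9) in control and 336.7 CPM (308.1 to 367.2) in exposed cells. Unlike the other loop genes it was also high in cluster 25, at 183 and 241.8 CPM. Loop-like clusters held 72.14% and 73.53% of its UMIs, and distal convoluted and connecting tubule-like clusters 22.44% and 21.89%. Few Kcnj1 UMIs fell in the collecting duct principal-like cluster 26, with 1 in control and 7 in exposed cells.

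Cells of different segments were then set to the same depth, by thinning each to 2000 UMIs, which left out 1484 control and 529 exposed cells with fewer. In cluster 11 Slc12a1 was then found in 94.7% and 94.0% of cells, Umod in 57.1% and 60.5%, and Kcnj1 in 44.0% and 41.3%. In stroma-like cells of joint cluster 2, which should lack all 3, the highest of these shares was 0.371%, for Umod in the control. Before thinning the median depth was 5849 and 7456 UMIs in cluster 11 and 4046 and 5219 in cluster 2.

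Within cluster 11 the cells with and without a Umod UMI at that depth differed in other genes, a split and gene choice made after the data were seen. In the control library Wnk1 was 375 CPM in the 152 cells with Umod and 732.5 CPM in the 114 cells without, a ratio of 0.512 (0.400 to 0.654). In the exposed library it was 277.2 CPM in 101 cells and 734.8 CPM in 66 cells, a ratio of 0.377. Slc12a1 hardly followed the split, with ratios of 0.893 (0.819 to 0.974) and 0.920 (0.820 to 1.03). Claudins of the loop did not share 1 direction. Cldn10, a paracellular channel, was higher beside Umod, with ratios of 1.94 (1.64 to 2.31) in control and 2.53 in exposed cells. Cldn16, a claudin of the magnesium and calcium path, was lower in control cells at 0.286 (0.150 to 0.519), and its exposed ratio of 0.585 had an interval that spanned 1. Cldn19 had ratios of 1.34 (1.00 to 1.80) and 0.894. Genes of the distal tubule also differed in direction: S100g, a calcium-binding protein, was lower beside Umod, with ratios of 0.447 and 0.342, while Calb1, another, gave 13 UMIs with Umod against 0 without in control and 0 against 1 in exposed cells. Wnk4, a related kinase, did not follow Wnk1, with ratios of 1.71 (1.11 to 2.68) and 1.45, the latter with an interval that spanned 1. Nos1, a marker of the macula densa, gave 3 UMIs with Umod against 10 without in control and 0 against 11 in exposed cells. Ptgs2, read in the same split, gave 1 against 10 in control but 1 against 1 in exposed cells. Slc12a3 was found mainly in the few cluster 11 cells without Slc12a1. At equal depth 8 of 14 control cells without Slc12a1 had a Slc12a3 UMI (57.14%), against 3 of 252 cells with it (1.19%). In the exposed library, with 167 cells in all, the shares were 40.0% and 1.274%, and the first of these rests on few cells.

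The stretches of genome just before the loop genes are shown because Umod and Slc12a1 varied together over the 36 clusters, with Pearson r of log2(CPM + 10) of 0.849 in control and 0.874 in exposed cells. This is a description over clusters that share libraries and depth. Slc12a1 lies on the forward strand of chromosome 2 (mm10, chr2:125152505-125230002), and the 155 bases before it are chr2:125152350-125152504. Umod lies on the reverse strand of chromosome 7 (chr7:119462711-119479282), and the 230 bases before it, printed on its own strand, are chr7:119479283-119479512. The letters are RefSeq's for GRCm38.p6 and run 5′ to 3′, and in Umod the capitals mark a match to GTTAAT, 3 bases of any kind and TAAC, letters bound by the kidney factor HNF1, from 182 to 170 bases before the gene.
Slc12a1: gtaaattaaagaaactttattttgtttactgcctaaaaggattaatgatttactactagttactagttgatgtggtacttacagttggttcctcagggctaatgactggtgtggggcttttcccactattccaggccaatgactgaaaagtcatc
Umod: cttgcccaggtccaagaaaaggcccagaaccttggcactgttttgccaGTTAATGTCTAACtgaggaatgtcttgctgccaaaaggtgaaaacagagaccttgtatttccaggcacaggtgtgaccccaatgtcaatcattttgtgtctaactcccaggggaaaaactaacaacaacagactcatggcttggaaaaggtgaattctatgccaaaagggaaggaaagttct
On either strand, 27 of 32851 mouse promoter windows of 250 bases (0.0822%) held that pattern, and of the 7 genes of this set in the promoter table Umod was the one that did. The shorter GTTAAT stands in 6.43% of windows, and among these 7 genes in that of Umod. Both patterns were chosen after the letters had been seen, so these shares are a description and no measure of how unusual the match is. A match of letters describes the sequence and shows no binding.

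Slc12a3, which encodes the thiazide-sensitive cotransporter NCC, separated the distal convoluted tubule-like cells. Its level in cluster 25, led by S100g, Pgam2, Calb1 and Defb1, was 2269 CPM (2182 to 2358) in control and 2415 CPM (2294 to 2541) in exposed cells. Cluster 32, whose UMIs were 71.6% and 69.68% mitochondrial, had 1958 and 1833 CPM. Distal convoluted and connecting tubule-like clusters together held 84.81% and 84.74% of its UMIs. Loop-like clusters held 6.87% and 7.91% and the intercalated-like class 3.83% and 4.54%. The principal-like cluster 26 had no Slc12a3 UMI in either library. Within cluster 25 the median was 9 UMIs per cell in control and 11 in exposed cells, and 26.98% and 38.75% of cells had none.

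Wnk1 encodes a kinase that controls NCC and NKCC2 through SPAK, and in mice the distal convoluted tubule is known for a short, kidney-specific form of it. The annotation lists 26 transcripts of the gene (chr6:119923969-120038672, reverse strand), which these counts cannot separate. Its level in cluster 25 was 1483 CPM (1413 to 1556) in control and 1491 CPM (1397 to 1591) in exposed cells, the closest pair of values of any of the 10 genes there. Cluster 32 followed with 943.1 and 1356 CPM. Unlike Slc12a3, Wnk1 was found in every class: distal convoluted and connecting tubule-like clusters held 27.39% and 25.85% of its UMIs, loop-like clusters 20.43% and 18.93%, nephron progenitor-like clusters 9.55% and 8.95%, and stroma-like clusters 9.30% and 9.71%. It was 57.65 and 58.35 CPM in the principal-like cluster 26.

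Cells of cluster 25 with and without a Slc12a3 UMI at equal depth differed too, a split again made after the data were seen. In the control library Wnk1 was 2008 CPM in the 122 cells with Slc12a3 and 717 CPM in the 53 cells without, a ratio of 2.80 (2.2 to 3.62). In the exposed library it was 2250 CPM in 46 cells and 590.9 CPM in 33 cells, a ratio of 3.81 (2.69 to 5.51). Wnk4, another kinase acting on NCC, followed the split too, with ratios of 2.90 and 5.84, as did Kcnj1 with 3.64 and 4.59 and Fxyd2 with 1.99 and 2.22. Cells without Slc12a3 had more of the sodium channel: the ratio was 0.452 and 0.552 for Scnn1b and 0.378 and 0.406 for Scnn1g. Aqp2, the vasopressin-regulated water channel, followed the channel genes, with ratios of 0.0632 and 0.0606. The ratio of Scnn1a was 0.748 and 1.55, and both intervals spanned 1. Markers of this segment did not share 1 direction either. Calb1 was higher beside Slc12a3, with ratios of 1.57 and 1.74, and Trpm6 gave 19 UMIs against 0 and 4 against 0. S100g was lower, with ratios of 0.601 and 0.626. Klk1 went opposite ways, at 2.21 (1.18 to 4.51) in control and 0.434 (0.247 to 0.748) in exposed cells.

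The window before Slc12a3 is shown as that of the gene by which cluster 25 was split. The gene lies on the forward strand of chromosome 8 (mm10, chr8:94329201-94366214), and the 243 bases before it are chr8:94328958-94329200. Capitals mark the one match to GCCNNNGGC, letters bound by AP-2 factors such as Tfap2b of the distal tubule, from 66 to 58 bases before the gene.
Slc12a3: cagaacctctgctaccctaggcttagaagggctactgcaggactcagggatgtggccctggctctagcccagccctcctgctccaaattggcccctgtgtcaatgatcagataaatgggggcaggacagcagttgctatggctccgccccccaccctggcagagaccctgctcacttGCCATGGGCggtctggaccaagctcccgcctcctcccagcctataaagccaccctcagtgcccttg
That pattern is common, standing in 13.7% of the windows, and of the 7 genes with a window Wnk1 held it too. The patterns AAGGTCA of estrogen-related receptors (4.08% of windows) and AGAACA, 3 bases of any kind and TGTTCT of steroid receptors (0.00913% of windows) were found before none of the 7 genes. The 5 patterns were chosen after the letters had been seen.

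The 3 ENaC subunits did not share 1 pattern. Scnn1b, the beta subunit, was 458.3 CPM (419.8 to 499.4) in cluster 25 of the control and 553.4 CPM (496.2 to 615.4) in the exposed library. In the principal-like cluster 26 it was 376 CPM (334.6 to 421) and 426.7 CPM (373.8 to 485). Scnn1g, the gamma subunit, followed it, with 175.9 CPM (152.4 to 202.1) and 225.6 CPM (189.6 to 266.4) in cluster 25 and 160.4 and 209.7 CPM in cluster 26. Scnn1a, the alpha subunit, which the channel needs to conduct well, was 132 CPM (111.7 to 154.8) and 162.3 CPM (132 to 197.4) in cluster 25 but 48.88 and 52.88 CPM in cluster 26. Cluster 36, of 25 and 23 cells with a median of 12350 UMIs over both libraries, carried markers of both collecting duct cell types, and 13 of its 48 cells had an authors' hybrid doublet score over 1. Its levels (425.7 and 588.4 CPM for Scnn1b) were therefore not read as those of a cell type.

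The subunits parted in the loop-like cluster 11 and in cluster 12. In the loop-like cluster 11 Scnn1a was 57.7 CPM in control and 40.93 CPM in exposed cells, while Scnn1b gave 2 and 4 UMIs and Scnn1g 3 and 1 over all its cells. At equal depth 20 of 266 control cells there (7.52%, 4.65 to 11.4) and 14 of 167 exposed cells (8.38%) had Scnn1a without the other subunits, and 0 and 1 cell had Scnn1b or Scnn1g without Scnn1a. In cluster 12, a ureteric bud and collecting duct-like cluster with Rprm, Lcn2 and Gdf15 among its leading genes, the order was the opposite: 42 of 254 control cells (16.5%) and 25 of 146 exposed cells (17.1%) had Scnn1b or Scnn1g without Scnn1a. The loop-like but mixed cluster 18 resembled cluster 12 and not cluster 11. In it 19.9% of control and 14.6% of exposed cells had Scnn1b or Scnn1g without Scnn1a, and 1.70% and 0.662% had Scnn1a alone. Its Scnn1b level was 116.3 and 112 CPM. Over all cells of cluster 12, Scnn1a gave 2 UMIs in control and 0 in exposed cells, and Scnn1b 62.26 and 67.4 CPM. In the stroma-like cluster 2 at equal depth Scnn1a was found in 0.371% of control cells and no exposed cell, and Scnn1b and Scnn1g in none of 539 and 257 cells, with exact upper limits of 0.682% and 1.43%.

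**Figure D3:**
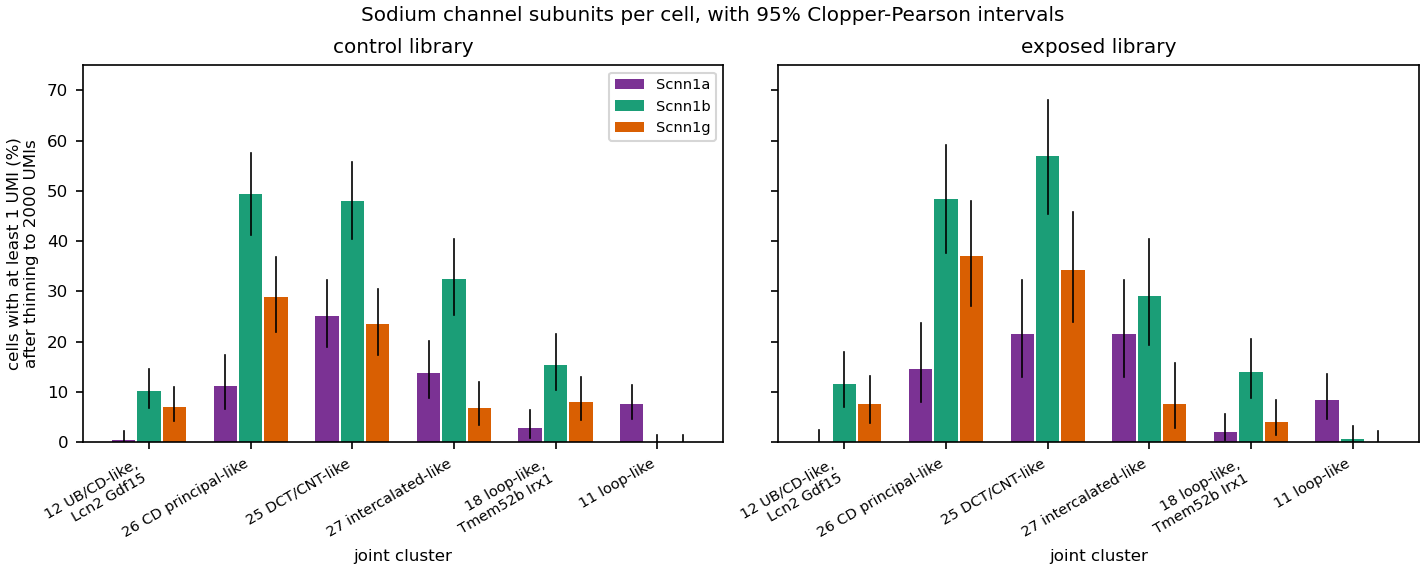
Percent of cells with at least 1 UMI of Scnn1a (purple), Scnn1b (green) and Scnn1g (orange) after thinning every cell to 2000 UMIs, in 6 joint clusters of each library, with exact 95% Clopper-Pearson intervals. Scnn1b and Scnn1g reach the most cells in clusters 26 and 25 and almost none in cluster 11, where Scnn1a is found in 7.52% and 8.38% of cells.

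The alpha share of the UMIs of the 3 subunits separated cluster 11 from every other cluster shown. At equal depth it was 22 of 22 UMIs (84.6 to 100%) in cluster 11 of the control and 14 of 15 (93.3%) in the exposed library. It was 23.5% (15.5 to 33.1) and 38.0% in the intercalated-like cluster 27, 19.1% (14.5 to 24.5) and 15.3% in cluster 25, and 9.27% (5.67 to 14.1) and 10.3% in the principal-like cluster 26. In cluster 12 it was 1 of 56 UMIs (1.79%) in control and 0% in exposed cells. The loop-like but mixed cluster 18 was not near cluster 11, with 11.1% (4.59 to 21.6) and 6.82% (1.43 to 18.7). Cluster 11 stood outside the intervals of all these other clusters in both libraries. Among the others, cluster 25 lay above cluster 26 with no overlap in control cells alone, and cluster 27 above cluster 25 with no overlap in exposed cells alone. The high-mitochondrial loop-like cluster 31, left out of the figure, had only 5 UMIs of the 3 subunits in control and 2 in exposed cells. All of them were Scnn1a (47.8 to 100% and 15.8 to 100%), so the share did not set cluster 11 apart from cluster 31. The alpha share compares clusters and not the amounts of the subunits, since the probe end and length of the 3 transcripts differ.

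Few cells showed RNA of all 3 subunits at this depth. In cluster 26 at least 1 subunit was found in 61.2% of control and 65.2% of exposed cells, and all 3 in 4.61% and 5.62%. In cluster 25 at least 1 was found in 61.7% and 75.9%, and all 3 in 5.14% and 5.06%. These shares depend on depth. With all UMIs of each cell, all 3 were found in 11.3% and 15.7% of cells of cluster 26. In cluster 25 they were then found in 18.5% and 37.5%. At equal depth Scnn1g was more often found in cells with Scnn1b than in cells without. In cluster 26 the shares were 38.67% against 19.48% of control cells and 51.16% against 23.91% of exposed cells. In cluster 25 the shares were 40.48% against 7.692% in the control but 35.56% against 32.35% in the exposed library.

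Scnn1g and Scnn1b are also neighbours, which is why the windows before both are printed. They lie on the forward strand of chromosome 7 (mm10), Scnn1g at chr7:121734479-121768475 and Scnn1b at chr7:121865038-121918514. Between them are 96.6 kb, in which 1 other gene lies from start to end. Over the 36 clusters no other of the 8899 genes compared followed Scnn1b more closely than Scnn1g did, with a lower r of 0.980 over both libraries, and none followed Scnn1g more closely than Scnn1b. Aqp3 (0.956) and Rhcg (0.955) came next for Scnn1b, and Atp12a (0.964) and Aqp3 (0.945) for Scnn1g. The 250 bases before each gene are chr7:121734229-121734478 for Scnn1g and chr7:121864788-121865037 for Scnn1b, in lower case since none of the 5 patterns was found.
Scnn1g: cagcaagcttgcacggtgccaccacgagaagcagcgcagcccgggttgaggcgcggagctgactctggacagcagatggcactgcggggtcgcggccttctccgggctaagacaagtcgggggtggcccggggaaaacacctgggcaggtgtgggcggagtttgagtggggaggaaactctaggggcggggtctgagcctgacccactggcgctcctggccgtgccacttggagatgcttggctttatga
Scnn1b: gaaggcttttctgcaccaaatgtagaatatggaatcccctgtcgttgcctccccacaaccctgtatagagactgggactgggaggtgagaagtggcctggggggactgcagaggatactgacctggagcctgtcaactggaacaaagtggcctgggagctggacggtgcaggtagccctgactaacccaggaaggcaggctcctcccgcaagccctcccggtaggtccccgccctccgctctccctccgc
Scnn1a lies apart, on chromosome 6 (chr6:125320659-125344943), and its closest genes were Atp6v1b1 (0.967), a proton pump subunit of intercalated cells, Ckmt1 (0.941) and Tspan1 (0.940). Its r with Scnn1b was 0.794 in control and 0.863 in exposed cells.

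Fxyd2 encodes the gamma subunit of the sodium pump, a small protein that tunes the affinity of the pump. Its level in cluster 11 was 11390 CPM (11250 to 11540) in control and 10750 CPM (10590 to 10920) in exposed cells. The proximal tubule-like cluster 13 followed with 7827 and 7520 CPM, cluster 25 with 5396 and 5021 CPM, and the intercalated-like cluster 27 with 4590 and 4884 CPM. It was low in the principal-like cluster 26, at 155.4 and 176.9 CPM, where the related Fxyd4 of the collecting duct was 2939 and 2205 CPM. Loop-like clusters held 39.35% and 46.4% of the Fxyd2 UMIs and proximal tubule-like clusters 37.32% and 32.36%, so in control cells the proximal share came close to that of the loop. The annotation lists 13 transcripts of it, which these counts cannot separate either. It lies on chromosome 9 (mm10, chr9:45399669-45410278).

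Slc12a2 encodes NKCC1, the cotransporter that many cells use for volume and chloride, usually on the blood side. It lies on chromosome 18 and was the least distal of the set. Its highest level was in cluster 16, a pericyte and renin cell-like cluster led by Ren1 and Akr1b7, with 394.8 CPM (348.7 to 445.3) in control and 337.2 CPM (293.8 to 385.1) in exposed cells. At equal depth 38.6% and 32.6% of the cells there had at least 1 UMI. The nephron progenitor-like cluster 3 had 141.9 and 120.4 CPM, the principal-like cluster 26 had 129.1 and 91.17 CPM, and the loop-like cluster 11 had 42.19 and 24.43 CPM. Nephron progenitor-like clusters held 32.11% and 31.25% of its UMIs and the pericyte-like class 10.79% and 14.71%. Its r with Slc12a1, the other cotransporter of this type, was -0.10 in control and -0.13 in exposed cells, over the same 36 clusters.

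For the other members genes with the closest levels are given with the lower r of both libraries over the 36 clusters. For Slc12a1 these were Cldn16 (0.914), Pappa2 (0.876) and Umod (0.849), and for Umod they were Irx2 (0.873), Pappa2 (0.872) and Cldn16 (0.854). Slc12a3 was closest to Abca13 (0.893), Klhl3 (0.884) and Klk1 (0.869). Kcnj1 was closest to Gm12326 (0.959), Kng2 (0.95) and Abca13 (0.948). Wnk1 had no equally close gene, the first being Sec14l1 (0.852), with Letm1 at 0.787, and the same held for Slc12a2, with Blmh (0.738), Slc4a7 (0.726) and Ktn1 (0.713). Fxyd2 was closest to Fabp3 (0.945), Tmem116 (0.904) and Sgk2 (0.886).

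Traces of these genes in cells that should lack them were read in the authors' stroma-, endothelium- and macrophage-like clusters, with 3561 control cells at a median depth of 2715 UMIs and 2222 exposed cells at 3500. The median gene had 4.41% of its whole-library level there in control and 2.67% in exposed cells, and 6 and 7 of the 10 genes were under 5%. Without the 5 richest cells per gene the medians were 2.79% and 0.398%, and the exposed one was 5.14% after thinning. Slc12a1 was at 11.3 CPM in the control, 4.32% of its library level, from 124 UMIs in 48 cells, of which 5 cells held 62. In the exposed library it was at 1.61 CPM (0.662%), from 14 UMIs in 14 cells. The control trace thus came in good part from few cells, while the exposed one was single UMIs.

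Slc12a3 showed the same form, with 34 UMIs in 9 control cells, 30 of them in 5, and 4 UMIs in the exposed library. Umod gave 40 UMIs in 34 control cells (3.12% of its library level) and 10 in 10 exposed cells (0.737%). Kcnj1 gave 5 and 4 UMIs. Scnn1a gave 12 and 11, each in a cell of its own, which is 8.61% (4.45 to 15.1) and 10.5% (5.25 to 18.8) of a low library level, and Scnn1b gave 19 and 5. Fxyd2, the gene with the most UMIs of the set, was found in 16.7% and 11.3% of these cells, at 108.9 and 49.53 CPM, 6.54% and 3.64% of its library level. These shares are background for the detection shares above.

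Slc12a2 and Wnk1 were not traces there. Slc12a2 had 101% and 106% of its library level in these cells and Wnk1 63.6% and 64.9%. The proportion of Umod in the pair with Slc12a1 was 26.8% (20.2 to 34.3) in joint non-epithelial-like cells of the control, against 30.9% over all its cells, and 43.5% (23.2 to 65.5) in those of the exposed library, against 39.1% over all its cells. In both libraries the proportion over all cells lay within the interval of the trace. The exposed trace was only 10 Umod and 13 Slc12a1 UMIs, and 5 control cells held 62 of the 120 Slc12a1 UMIs there. Such counts cannot tell where the traces came from, which was not tested. With the joint clusters in place of the authors', 5 exposed cells held 28 Slc12a3 UMIs, and the median gene had 4.49% and 3.86% of its library level.

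**Figure D4:**
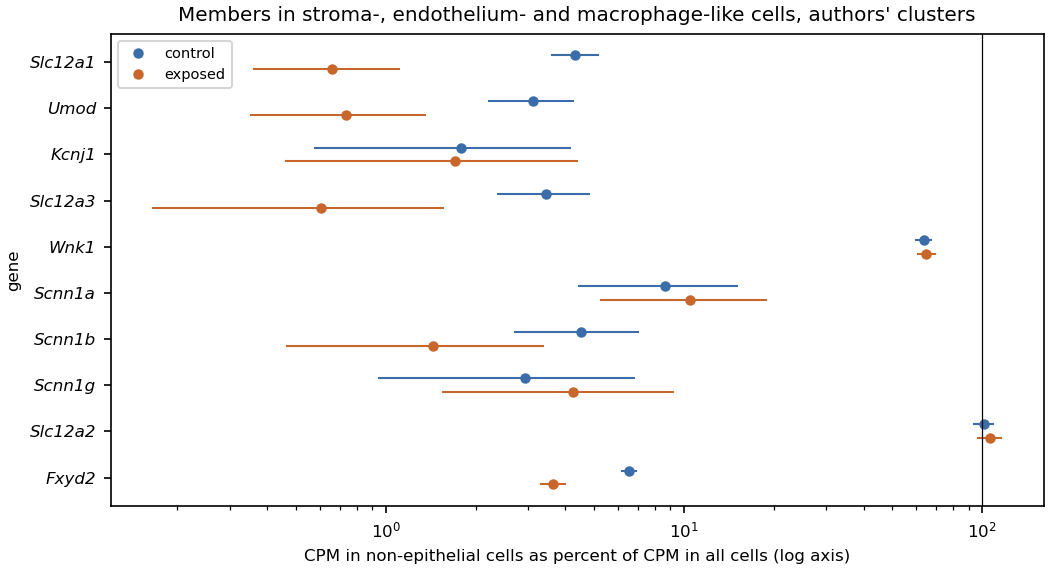
CPM in the authors' stroma-, endothelium- and macrophage-like clusters as percent of CPM in all cells of the library, on a log axis, for each gene with exact 95% Poisson intervals; control is blue and exposed orange. Slc12a2 lies near 100% and Wnk1 at 63.6% and 64.9%, while the other genes lie between 0.608% and 10.5%.

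Side by side over all cells, the 10 genes differed little between the libraries. None of the 10 was past 1.5-fold in either direction on the log2(CPM + 10) scale, against 0.235% of all genes with at least 50 UMIs. Umod went from 116.6 CPM in control to 156.3 CPM in exposed cells, a ratio of 1.34 (1.29 to 1.40). Fxyd2 went from 1666 to 1360 CPM, a ratio of 0.817, Slc12a3 from 89.82 to 75.74 CPM (0.843) and Slc12a2 from 62.68 to 52.28 CPM (0.834). Slc12a1 went from 260.5 to 243.5 CPM (0.935) and Wnk1 from 175.3 to 158.8 CPM (0.906). Kcnj1 was 25.46 and 27.04 CPM, Scnn1a 12.65 and 12.05, Scnn1b 38.34 and 39.98, and Scnn1g 15.54 and 16.34. A level over all cells moves with the share of cells of a type and with the level in them. Cluster 25, for example, made up 2.08% of control and 1.46% of exposed cells, and cluster 11 2.99% and 3.08%.

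In the authors' distal nephron-like clusters, 629 control and 565 exposed cells, the median log2 ratio of exposed over control was -0.04 for the 10 genes and 0.12 for all genes measured. Of the 10, 2 were past 1.5-fold, where 4.51% of all genes measured were. Slc12a3 went from 999.7 to 573.6 CPM, a ratio of 0.574 (0.543 to 0.607), and Wnk1 from 955.7 to 623.4 CPM, a ratio of 0.652 (0.618 to 0.689). Wnk1 fell short of 1.5-fold, at a log2 ratio of -0.55, both without cells with a hybrid doublet score over 1 and after thinning. Both values depended on which cells the class held. In the joint distal nephron-like clusters the ratio was 0.823 for Slc12a3 and 0.819 for Wnk1, none of the 10 genes was past 1.5-fold against 0.581% of all genes, and the median log2 ratio was -0.15, against 0.01 for all genes. Within cluster 25 alone the ratio of Slc12a3 was 1.06 (0.998 to 1.14) and that of Wnk1 1.01 (0.927 to 1.09). Mitochondrial UMIs were 29.95% of the authors' class in control and 23.64% in exposed cells, and without cells over 25% the log2 ratio of Slc12a3 was -1.17, against -0.79 with them, and that of Wnk1 -0.79, against -0.61.

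**Figure D5:**
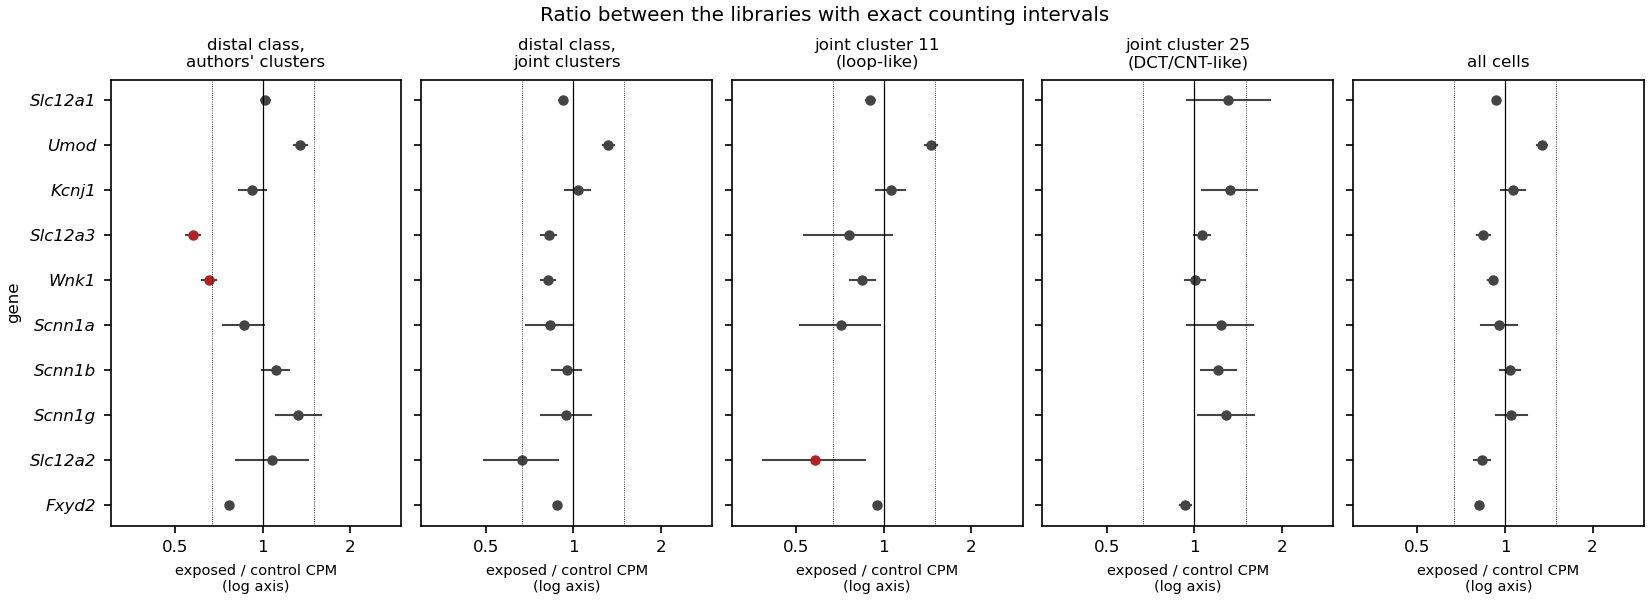
Ratio of exposed over control CPM for each gene, on a log axis, in 5 groups of cells, with exact conditional binomial 95% intervals; dotted lines mark 1.5-fold, red points are past it on the log2(CPM + 10) scale, and genes with under 50 UMIs in a group are left out. Slc12a3 (0.574) and Wnk1 (0.652) are red in the authors' distal clusters and lie close to 1 in cluster 25, and Umod lies above 1 in every panel that shows it.

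By segment, cluster 25 had none of 8 measured genes past 1.5-fold, against 4.34% of all genes, with ratios of 1.32 for Kcnj1, 1.28 for Scnn1g and 1.21 for Scnn1b. In the loop-like cluster 11, 1 of 8 was, against 1.74% of all genes: Slc12a2, from 87 control and 37 exposed UMIs, at 0.579 (0.383 to 0.860). Umod there had a ratio of 1.45 (1.38 to 1.52), Slc12a1 of 0.898 and Scnn1a of 0.709. In cluster 18, 3 of 9 were, against 3.77% of all genes in either direction, and all were lower in the exposed library, as 2.2% of all genes were: Slc12a3 at 0.324 (0.210 to 0.488), Umod at 0.538 (0.466 to 0.619) and Wnk1 at 0.537 (0.414 to 0.692). Umod thus moved one way in cluster 11 and the other way in cluster 18, where 5 cells of each library held much of it. In the principal-like cluster 26 none of 6 was past 1.5-fold, against 8.31% of all genes, and Scnn1g had a ratio of 1.31. In the intercalated-like cluster 27, 1 of 7 was, against 6.0%: Slc12a2, at 0.567 (0.306 to 1.00). In the high-mitochondrial loop-like cluster 31, 2 of 6 were, against 19.2%: Slc12a3 at 1.94 (1.30 to 2.95) and Wnk1 at 0.549.

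The partners of the 10 genes gave the setting, from lists counted whole in the joint distal nephron-like clusters, where the 0.581% above is the background. Of the WNK and SPAK kinase pathway, 9 of 11 genes were measured and none was past 1.5-fold, with a median log2 ratio of -0.10 and a range from 0.00 for Stk39, the kinase SPAK, to -0.29 for Cab39l. Of the chloride and paracellular path of the thick limb, 8 of 12 were measured and none was past it, with Cldn10 highest at 0.32 (678.8 to 847.1 CPM). Of the genes that control ENaC, 9 of 10 were measured and none was past it, with a median of -0.01, Tsc22d3 at 0.17 and the kallikrein Klk1 at -0.56. By segment Klk1 was past it in both directions, going from 214.8 to 109.6 CPM in cluster 11 (log2 ratio -0.91) and from 180.3 to 280.8 CPM in cluster 25 (0.61), where 1.74% and 4.34% of all genes were past it.

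Of the sodium pump and its FXYD subunits, 5 of 9 were measured and none was past 1.5-fold, from Fxyd4 at 0.32 to Atp1b1 at -0.16. Of the calcium and magnesium genes, 8 of 10 were measured and 1 was lower, the calcium-binding protein Calb1, from 715.6 to 454.7 CPM (log2 ratio -0.64), while Atp2b1, a calcium pump, was at -0.04. Of the collecting duct water and acid genes, 8 of 10 were measured and none was past it, from Car2 at -0.13 to Aqp2 at -0.39, but these clusters are not collecting duct-like: control Aqp2 was 172.4 CPM in them and 10450 CPM in cluster 26. Of the segment transcription factors, 19 of 23 were measured and none was past it, from Emx2 at 0.27 to Emx1 at -0.42.

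These partners lay in the segments of the genes they serve. Wnk4 was highest in cluster 25, at 296.5 and 337.6 CPM, as was Klhl3, an adaptor for the breakdown of WNK kinases, at 211.1 and 219.1 CPM, and Kcnj10, the basolateral potassium channel, at 110.8 and 107.1 CPM. Stk39 was highest in cluster 11, at 103.8 and 91.77 CPM, as were Cldn10 at 1293 and 1579 CPM and Cldn16 at 126.1 and 118.2 CPM. Hsd11b2, which shields the mineralocorticoid receptor from glucocorticoids, was 402.3 and 410.3 CPM in cluster 26 and 344 and 407.3 CPM in cluster 25, 2 clusters in which Scnn1b and Scnn1g were high.

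Some counts could hold reads of a neighbour. Gm14002 overlaps Slc12a1, Gm44588 overlaps Umod and Cog7 overlaps Scnn1b, each on the opposite strand. The use of strand in counting was not given in the sources used here, and if strand was ignored, reads of either gene of a pair could not be told apart.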

How the data were processed

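Per the labels, whole kidney of male C57BL/6J mice at postnatal day 2 was profiled with the 10x Genomics Chromium 3′ kit, 1 library per group. Cell Ranger 2.2.0 and mm10 are named in the submitters' processing notes. The authors deposited whole-number UMI counts per gene and cell. A further table of the authors lists for every cell, per the file headers, its percent of mitochondrial UMIs, doublet scores (the hybrid score was used as an alternative filter, a score of the authors) and a cluster number. How cells and genes were chosen, and whether doublets were removed before deposit, was not given in the sources used here; no doublet caller was run and all cells were kept.

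Counts over the genes listed for both libraries were summed per gene, library and cluster and divided by the group total (CPM), with exact Poisson intervals for levels, Clopper-Pearson intervals for shares and exact conditional binomial intervals for ratios, at 95%. A member was called past 1.5-fold on log2(CPM + 10) with at least 50 UMIs over both libraries. A cluster took the name with most markers, at least 3, each in at least 10% of its cells and at 2 times the level of other cells. Joint clusters used scanpy 1.11.5 and leidenalg 0.10.2 (2000 variable genes, 30 components, 15 neighbours, resolution 2). Code was tested on simulated data. Gene positions are GENCODE's for mm10 and sequences RefSeq's, with 7 of the 10 genes matched in the promoter table. All 10 genes were named, with the 3 genes closest to each, and of each pathway list those with the largest and smallest ratio. The members and lists were chosen with earlier results of these data known, and so was the choice of genes given more room. Some genes these rules select are not reported here.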

Additional observations from a re-analysis of the deposited data

How the results depend on the processing

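With 1 library per group no value here has a replicate, so leaving out replicates was not possible. No paired analysis was possible because each group has 1 library and no test was made. The number of genes past 1.5-fold in the authors' distal nephron-like clusters was 2. It was 1 without cells with a hybrid score over 1 and 1 after thinning, and 0 with joint clusters and 0 with coarser joint clusters, a setting chosen after seeing the data; the joint clusters place other cells in the class by construction. The median level in non-epithelial-like cells was 4.41% in the control and 2.79% without the 5 richest cells per gene; in the exposed library it was 2.67%, 5.14% after thinning and 0.398% without those cells, which hold much of so few UMIs. The cause of the change with thinning was not tested. The median log2 ratio in the distal class kept its direction in all 11 alternatives, between -0.03 and -0.19. In all 6 alternatives run for it, 8 to 9 genes stayed highest in a distal nephron-like or collecting duct-like cluster. With joint clusters Scnn1g in both libraries and Scnn1b in the exposed library were highest in cluster 36, which was not read as a cell type. Of 110 alternatives for single genes in the distal class, 36 moved a value by more than its counting interval. A reversal of direction was counted only for genes past 1.5-fold in the main setting, here 2 genes, and 0 were found. Slc12a3 there ranged from -1.17 without cells over 25% mitochondrial UMIs to -0.19 with coarser joint clusters. Over all cells 16 of 90 moved. No gene was past 1.5-fold there in the main setting, so no reversal could be counted. Joint clusters give no other value for all cells and were not run for it. Depth limits the shares of cells with a UMI, which are given at 2000 UMIs per cell.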
